A study of Rattus norvegicus with 6 samples.

Results

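The transcripts of the heterotrimeric G protein alpha subunits were followed in pancreatic islets of 3-month-old and 12-month-old male Wistar rats. The family comprised 10 genes, *Gnai1*, *Gnai2*, *Gnai3*, *Gnas*, *Gnaq*, *Gna11*, *Gnao1*, *Gnaz*, *Gna12* and *Gna13*, out of 13903 genes with a probe on the array, and each of the 10 had at least 1 probe. The family was chosen by the age difference of *Gnai1* on these same arrays, one of the largest rises measured, so *Gnai1* is described here without a test. Islets were isolated by collagenase digestion, and total RNA was labelled with Cy3 for 1-colour Arraystar arrays, 3 for each age. The labels give the rats no treatment or genetic change. The methods of the study name 3 rats of each age as the source of the RNA, while the labels do not tie an array to an animal, so p-values measure the spread between these arrays.

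A G alpha subunit binds GDP and a beta gamma dimer at rest. An activated receptor exchanges GDP for GTP on the alpha subunit, which then leaves the dimer and acts on an effector until it hydrolyses the GTP. The subunits coded by *Gnai1*, *Gnai2*, *Gnai3*, *Gnao1* and *Gnaz* belong to the inhibitory class, which lowers cAMP and carries the inhibition of insulin release by catecholamines, somatostatin and prostaglandin E. The product of *Gnas* stimulates adenylyl cyclase and carries the incretin signal to the beta cell. The products of *Gnaq* and *Gna11* activate phospholipase C beta downstream of muscarinic and fatty acid receptors, and those of *Gna12* and *Gna13* activate exchange factors for the GTPase RhoA.

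Islet identity was checked first. *Ins1*, *Ins2*, *Gcg* and *Sst*, which code for the 2 rat insulins, glucagon and somatostatin, were well above background on all 6 arrays. Their age differences were 0.10, −0.12, 0.19 and 0.32 on the log2 scale, none past an adjusted p of 0.05 in limma. These signals lay at the top of the scale, where quantile normalisation gives the arrays the same values and leaves little room for a difference. *Ins1* was at 18.86 on 12-month replicate 3 and on 3-month replicate 1. Of the 10 acinar marker genes, 10 were also well above background on every array, so exocrine RNA was present at both ages. The ages were scanned apart, and neither scan held both, so age and scan cannot be told apart for any value that follows. The 12-month arrays had a higher background: the median signal of the negative control spots was 89.5 to 91 at 12 months and 29.5 to 31 at 3 months, and 59.5% to 64.2% of probes against 73% to 77.4% were well above background. A log2 signal had to reach between 4.26 and 5.13 to be well above background at 12 months, and between 2.89 and 3.17 at 3 months. In RNA from whole islets, fewer cells of a type and less RNA per cell cannot be told apart.

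The starts of the 2 members with the largest increases, *Gnai1* and *Gnao1*, are shown because they can be set beside the values that follow. RefSeq (assembly GRCr8) gave a promoter for 7 of the 10 members, and 9 promoters in all, since *Gnas* has 3. *Gnai2*, *Gnai3* and *Gnaz* were not matched. Each sequence covers the 250 bases before the start of the gene, 5′ to 3′ on the strand of the gene, and capitals mark the GC box GGGCGG, searched on both strands (CCGCCC on the other), and the cAMP response element TGACGTCA, which reads the same on both.
Gnai1, chr4:17705811-17706060, plus strand: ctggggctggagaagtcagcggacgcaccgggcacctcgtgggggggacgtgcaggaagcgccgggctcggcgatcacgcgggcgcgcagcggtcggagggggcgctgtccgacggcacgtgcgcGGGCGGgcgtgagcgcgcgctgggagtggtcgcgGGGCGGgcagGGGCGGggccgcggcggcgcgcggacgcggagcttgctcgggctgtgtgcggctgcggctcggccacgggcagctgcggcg
Gnao1, chr19:11198438-11198687, minus strand: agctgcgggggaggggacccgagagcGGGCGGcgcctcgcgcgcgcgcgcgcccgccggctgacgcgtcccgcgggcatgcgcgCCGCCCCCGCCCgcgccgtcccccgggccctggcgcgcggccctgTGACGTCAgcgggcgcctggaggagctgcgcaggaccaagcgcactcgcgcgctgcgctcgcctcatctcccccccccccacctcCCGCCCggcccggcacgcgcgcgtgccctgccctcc
The *Gnai1* promoter was 80.4% G and C, with 45 CpG dinucleotides and 3 GC boxes. That of *Gnao1* was 83.6% G and C, with 46 CpG dinucleotides, 4 GC boxes and 1 cAMP response element. Over all 33469 promoters of the same length, the median was 51.2% G and C with 5 CpG dinucleotides, 30.5% held a GC box and 1.59% a cAMP response element. A GC box was found in 8 of the 9 member promoters and the cAMP response element in 1 of the 9, that of *Gnao1*. The TATA box TATAAA, searched on both strands, was found in 1 of the 9, a promoter of *Gnas*, and in 12.9% of all promoters. A link between any of these motifs and an age difference was not tested. The motifs are matches of letters and not measured binding sites.

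*Gnai1*, which codes for the inhibitory subunit Gαi1, was the most different member. Its quantile-normalised log2 signal was 8.65, 8.96 and 8.77 on the 12-month arrays and 2.02, 3.52 and 2.85 on the 3-month arrays. All 3 arrays at 12 months were well above background, against 1 of the 3 at 3 months, and the lowest 12-month value stood 5.13 above the highest 3-month value. Before normalisation the background-subtracted signal was 836, 803 and 433 at 12 months and 1.55, 11.2 and 6.70 at 3 months. The gap was thus present in the scanner values before normalisation. The means were 8.79 ± 0.16 and 2.80 ± 0.75 (SD, n = 3 each), a difference of 5.996 on the log2 scale. Because most 3-month signals were not well above background, no exact fold is given. With the 3-month signals raised to the lowest signal well above background on each array, the difference was 5.60, or 48.5-fold. This is no lower bound on the fold. With normexp background correction, which adds an offset to every signal, the difference was 2.89.

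**Figure D1:**
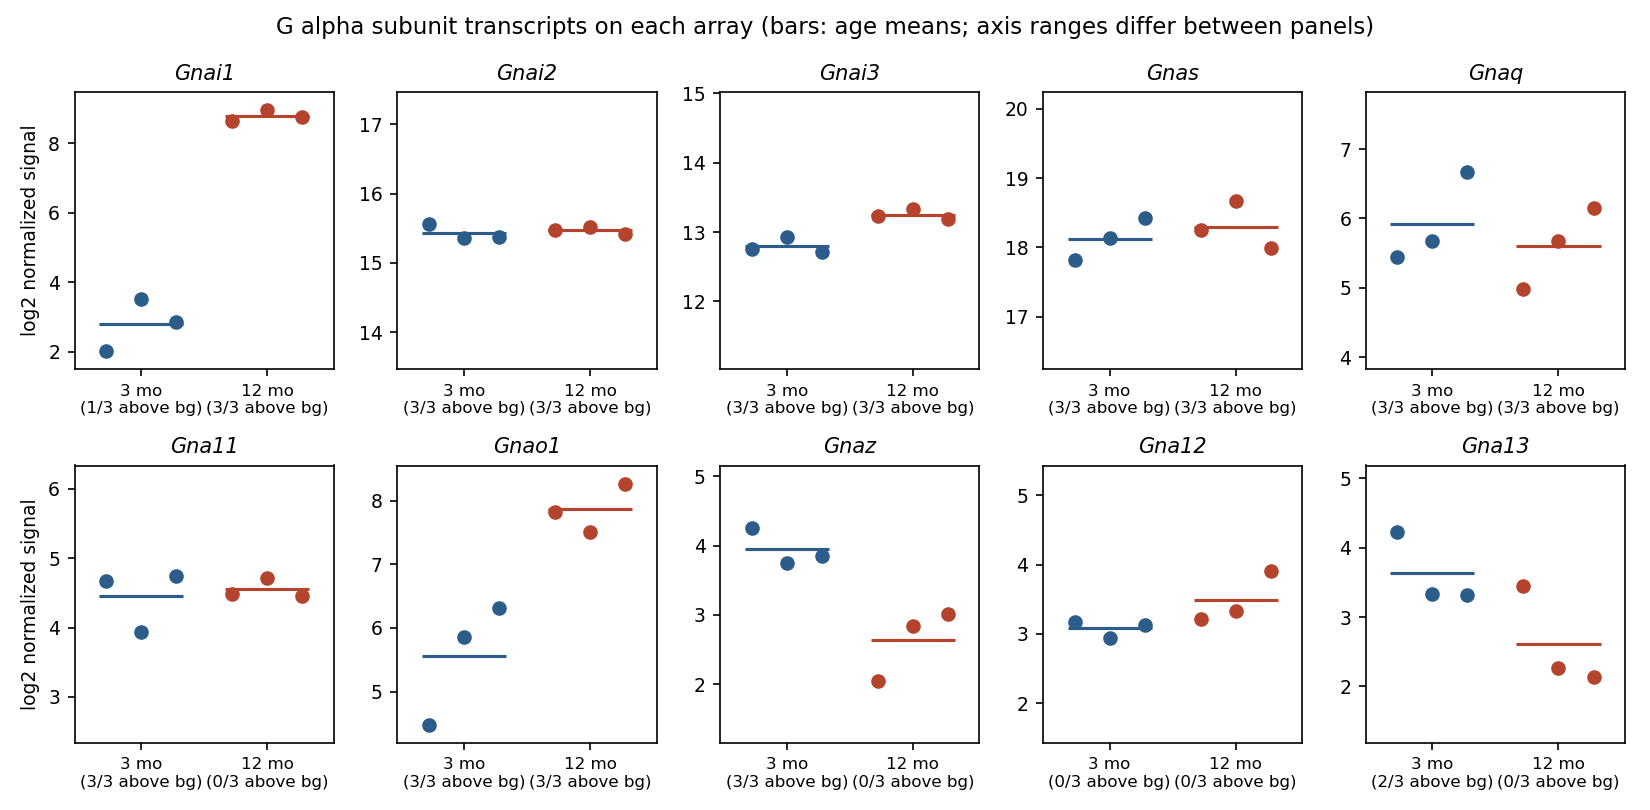
Log2 normalised signal of the 10 G alpha subunit transcripts on each array (vertical axis, range set for each panel) at 3 months (blue) and 12 months (red). Points are arrays, bars are age means, and the line under each age gives how many of its 3 arrays were well above background (bg). *Gnai1* lies at 8.65 to 8.96 at 12 months and at 2.02 to 3.52 at 3 months, while the *Gnai2* points of both ages lie between 15.36 and 15.57.

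The 3 genes whose profile over the 6 arrays was closest to that of *Gnai1* were *Baz2b*, *Lig4* and *Zfp800*. Likeness was the root mean square difference of profiles centred on their own means, among 9173 genes well above background on all 3 arrays at 12 months, and it was 0.32, 0.46 and 0.66 in that order. *Baz2b*, which codes for a bromodomain protein, had log2 signals of 8.19, 8.76 and 8.24 at 12 months and 2.36, 3.49 and 3.03 at 3 months. *Lig4*, the DNA ligase of non-homologous end joining, was at 7.99, 8.42 and 8.39 against 2.13, 2.09 and 2.11. *Zfp800*, a zinc finger gene, was at 7.19, 8.16 and 7.41 against 2.10, 2.09 and 2.86. All 3 were well above background on each 12-month array, and at 3 months on 1 array for *Baz2b* and on 0 for *Lig4* and *Zfp800*. These genes share arrays, scans and a 3-month signal near background with *Gnai1*, and no test was made of them.

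The close relatives *Gnai2* and *Gnai3* did not move in the same way. *Gnai2*, which codes for the Gαi2 subunit, was at 15.48, 15.52 and 15.42 at 12 months and 15.57, 15.36 and 15.37 at 3 months, and the ages overlapped. Its difference was 0.04 (SE 0.21, 95% interval −0.47 to 0.55; limma, adjusted p = 0.913). *Gnai3* was at 13.23, 13.33 and 13.19 against 12.76, 12.93 and 12.71. The *Gnai3* groups did not overlap, but the difference of 0.45 (SE 0.22, 95% interval −0.058 to 0.97) did not pass the test (limma, adjusted p = 0.192). The *Gnai3* signal relative to *Gnai2* within each array was −2.25, −2.18 and −2.23 at 12 months and −2.81, −2.44 and −2.66 at 3 months. This within-array log2 difference was thus 0.41 higher at 12 months, with no overlap, and the exact two-sided permutation test gave p = 0.1, the smallest that 3 arrays against 3 allow (adjusted p = 0.2 over the 4 pairs of relatives compared). In the other 3 pairs, *Gnaq* with *Gna11*, *Gna12* with *Gna13* and *Gnao1* with *Gnaz*, 1 or both members were not well above background at 12 months, and their differences are not given.

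*Gnao1* was the 1 member that passed the test. It codes for Gαo, the abundant inhibitory subunit of neurons, which is also made in endocrine cells. Its log2 signal was 7.82, 7.51 and 8.27 at 12 months and 4.48, 5.87 and 6.32 at 3 months, well above background on all 6 arrays. The 12-month values were all higher, and the 3-month values were the more scattered, with SDs of 0.38 and 0.96 about means of 7.87 and 5.56. The difference was 2.31 (SE 0.50, 95% interval 1.12 to 3.50), or 4.97-fold (limma, adjusted p = 0.0402; exact permutation p = 0.1, the smallest possible). The call depended on which arrays were included. Leaving out 1 array at a time gave differences of 1.78 to 2.69, and the call held in 1 of those 6 fits, that without 12-month replicate 2 (adjusted p = 0.0450). Of 17 other settings in all, the call held in 7, with adjusted p from 0.0263 to 0.299, and the difference was positive in each. It was smallest with normexp background correction, at 1.19, so the size of the fold depended on the processing.

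Marker genes of the other islet cell types were read on the same arrays. All 10 tested nerve and Schwann cell markers had lower means at 12 months, with a median difference of −1.27, and 2 of the 10 were called lower (*Sox10* and *Prph*). Over all genes tested 2.99% were called lower and 4.88% higher, and 43.5% had a positive difference. The summed signal adds quantile-normalised signals on the linear scale, so it is scaled between arrays and does not stand apart from normalisation. For the nerve and Schwann cell list it was 3706 to 5298 at 12 months and 8762 to 14159 at 3 months. For *Cdh19*, another marker of this list, no array was well above background. Of 7 tested beta cell markers, 2 were called higher (*Slc2a2* and *Slc30a8*), and 5 differences were positive and 2 negative. Their median difference was 0.95 and their summed signal 1052560 to 1197310 against 828988 to 970440. That median is the value of *Iapp*, which was not called (limma, adjusted p = 0.0532), and the sum comes mostly from *Ins1*, *Ins2* and *Iapp*. All 7 tested markers of other endocrine cells had higher means at 12 months, 1 of them called (*Hhex*), with a median of 0.44 and a summed signal of 911429 to 1008040 against 719870 to 790525. All 6 tested stellate and mesenchymal markers had higher means at 12 months, 1 of them called (*Pdgfrb*), with a median of 1.46 and a summed signal of 35674 to 78311 against 12554 to 23780. In limma no gene was called of the 10 acinar, 4 duct, 6 endothelial, 8 immune and 2 red blood cell markers tested, and 0, 0, 4, 0 and 1 of them had an unadjusted p under 0.05. Their median differences were 0.10, −0.09, −0.76, −0.12 and −1.06. The part of these cell types in the results was not tested.

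*Gnaz* was the tested member with the lowest difference. It codes for Gαz, an inhibitory subunit that resists pertussis toxin and restrains cAMP and insulin release in the beta cell. Its log2 signal was 2.05, 2.84 and 3.01 at 12 months and 4.26, 3.75 and 3.85 at 3 months, and the groups did not overlap. The difference was −1.32 (SE 0.33, 95% interval −2.11 to −0.54) and did not pass the test (limma, adjusted p = 0.0551). With normexp correction it was −0.19. None of the 12-month arrays was well above background for *Gnaz*, which entered the fit through its 3-month signal alone, so its difference and p are given as a description. The detection limit, averaged over the 12-month arrays, lay above the 3-month mean, so no fold is given, and the part of the higher background at 12 months in the lower value was not tested.

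Members of the stimulatory and phospholipase classes showed differences within the spread between arrays. The brightest of 3 probes for *Gnas* was at 18.25, 18.67 and 17.99 at 12 months and 17.82, 18.13 and 18.43 at 3 months, with overlap. Its difference was 0.18 (SE 0.29, 95% interval −0.52 to 0.87; limma, adjusted p = 0.692), and the other *Gnas* probes gave −0.36 (adjusted p = 0.383) and −0.13 (adjusted p = 0.716). *Gnas* is an imprinted locus with several start sites, and its probes differed in sign. The brightest probe and that with −0.13 lay at the top of the scale, like the hormone transcripts. Quantile normalisation leaves little room for a difference there, so these values do not show that *Gnas* was unchanged. *Gnaq* was at 4.98, 5.67 and 6.15 against 5.44, 5.67 and 6.67, a difference of −0.33 (SE 0.44, 95% interval −1.37 to 0.72; limma, adjusted p = 0.622). *Gna11* was at 4.48, 4.72 and 4.46 against 4.68, 3.94 and 4.74, a difference of 0.10 (SE 0.29; limma, adjusted p = 0.825), and was well above background on 0 of the 12-month and all 3-month arrays.

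The RhoA-linked subunits were near background. *Gna12* was at 3.21, 3.33 and 3.91 at 12 months and 3.17, 2.95 and 3.13 at 3 months, and none of the 6 arrays was well above background. *Gna13* was at 3.44, 2.26 and 2.14 against 4.23, 3.33 and 3.32, with 0 arrays well above background at 12 months and 2 at 3 months. Both missed the requirement of 3 arrays well above background and were not tested. At this signal over background a difference in either was not detectable, which does not mean that the transcripts were absent.

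**Figure D2:**
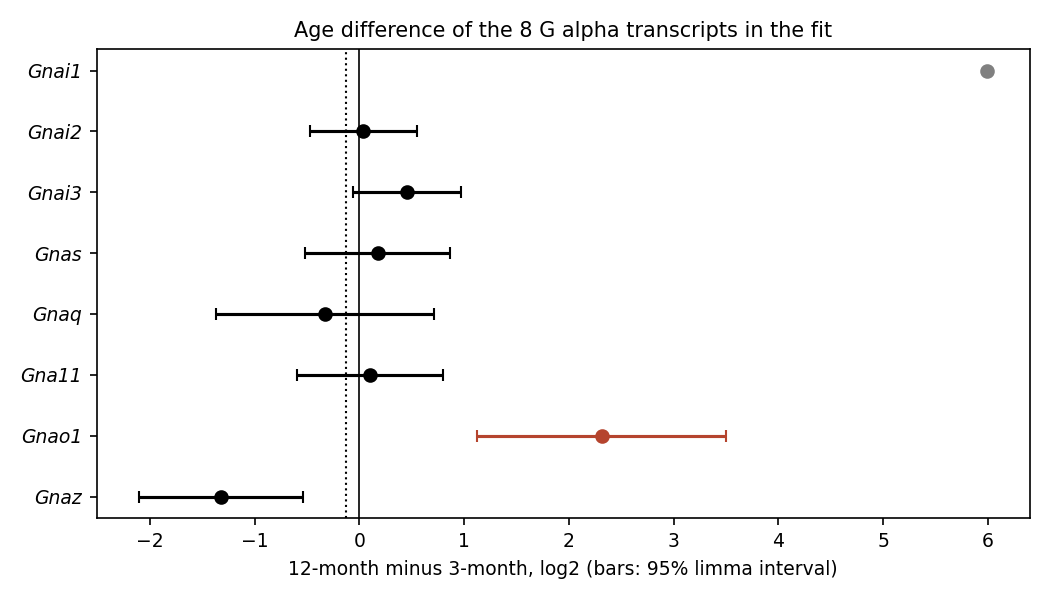
Age difference (12-month minus 3-month, log2) of the 8 members that entered the fit, with 95% limma intervals for all but *Gnai1*. Grey marks *Gnai1*, which chose the family and is shown as a value alone, red marks the member past an adjusted p of 0.05, and the dotted line is the median of all genes tested (−0.13). The *Gnao1* interval about 2.31 lies above 0, that of *Gnaz*, which rests on 12-month signals below detection, lies below 0, and the other 5 intervals span 0.

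Without *Gnai1*, 7 members were tested, and 1 of the 7 was called. Over all 11200 genes tested, 7.87% were called, 4.88% as higher and 2.99% as lower at 12 months. The ages were separate, without overlap, in 3 of the 7 (2 higher, 1 lower), against 39.4% of all genes (17.1% higher, 22.3% lower). The median difference of the 7 was 0.10, and that of all genes −0.13. The 0.10 is the value of *Gna11*, and the 1 lower member is *Gnaz*. Each of these 2 genes had 0 of 3 arrays past detection at 12 months. Neither figure therefore rests on a detected 12-month signal, and neither can be set against all genes as a measured difference. The study asked for more than 2-fold and an unadjusted p below 0.05 from a paired test of each gene. With limma's unadjusted p in its place, *Gnao1* and *Gnaz* passed, 2 of the 7 against 19.5% of all genes, but the fold of *Gnaz* was taken from 12-month signals below detection and is no measured fold. With 7 genes, shares of this size are no result about the family. *Gnaz* and *Gna11* entered through their 3-month signal alone.

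The partners of the alpha subunits were read from lists of other G proteins, regulators and effectors. In these 8 lists 46 genes were tested and 3 were called, 2 higher and 1 lower, again beside 7.87% of all genes. *Rgs17* had the largest difference. It codes for a regulator of G protein signalling that speeds GTP hydrolysis on inhibitory alpha subunits, Gαz among them. Its log2 signal was 9.35, 10.19 and 9.97 at 12 months and 6.01, 7.51 and 6.67 at 3 months, with no overlap. The difference was 3.11 (SE 0.44), or 8.61-fold (limma, adjusted p = 0.0137), and the call held in 11 of 17 other settings, 4 of the 6 that left out 1 array among them. It was lost without 12-month replicate 3 (3.04, adjusted p = 0.0545) and without 3-month replicate 3 (3.08, adjusted p = 0.0515). The call was also lost in limma with a block of the 2 numbered pairs (adjusted p = 0.198) and in the 4 arrays whose names share an ending (adjusted p = 0.141). With the methods' t-test it was lost unpaired (adjusted p = 0.0688) and paired (adjusted p = 0.248). The other 13 tested RGS genes were not called, with 6 positive and 7 negative differences.

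Among the subunits of the beta gamma dimer, *Gng5*, a gamma subunit gene, was at 8.14, 8.34 and 8.24 at 12 months and 7.03, 7.49 and 6.93 at 3 months. It was higher by 1.09 (SE 0.25), or 2.13-fold (limma, adjusted p = 0.0458), and kept the call in 5 of 17 other settings. The other 4 tested gamma genes were not called. None of the 5 beta genes was called in limma, and 2 had an unadjusted p under 0.05, as did 30.6% of all genes. Their median difference was 0.68. *Gnb1*, the largest of them, was at 10.70, 9.65 and 10.56 against 9.29, 8.86 and 8.54, a difference of 1.41 (SE 0.37; limma, adjusted p = 0.0611).

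Of 5 tested chaperones and GoLoco proteins, which fold alpha subunits or hold them in the GDP state, *Gpsm3* was called. Its log2 signal was 9.33, 9.02 and 9.16 at 12 months and 10.57, 10.04 and 10.90 at 3 months. It fell by 1.33 on the log2 scale (SE 0.29; limma, adjusted p = 0.0410), or 2.52-fold, and kept the call in 7 of 17 other settings. *Pcp2*, another GoLoco gene, had a difference of −1.74 (SE 0.42) that missed the threshold (adjusted p = 0.0513). No gene was called among the 4 tested other alpha subunits, the 6 adenylyl cyclases, the 3 phospholipase C beta isoforms or the 4 RhoGEF effectors. At an unadjusted p under 0.05 limma gave 2, 2, 1 and 2 genes in these lists, beside 30.6% of all genes. Their median differences were −0.79, 0.83, −0.75 and 0.50. The largest differences among genes well above background on all 6 arrays were −1.69 for *Gnat3* (adjusted p = 0.0603), which codes for the taste alpha subunit gustducin, 1.23 for *Adcy8* (adjusted p = 0.156), a calcium-stimulated cyclase, −0.75 for *Plcb4* (adjusted p = 0.0984) and 1.25 for *Arhgef1* (adjusted p = 0.308).

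**Figure D3:**
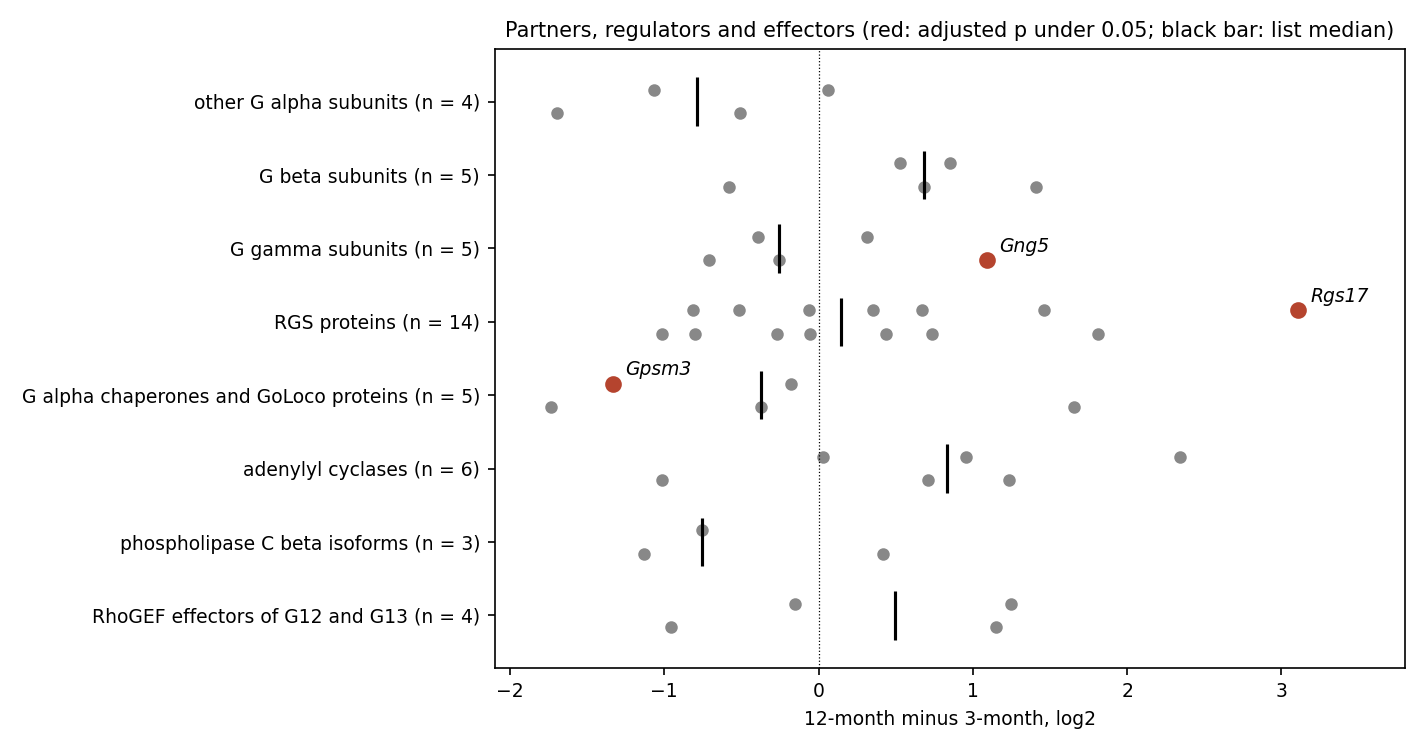
Age difference (12-month minus 3-month, log2, horizontal axis) of the tested genes of 8 lists of G protein partners, regulators and effectors. Each point is a gene, red points passed an adjusted p of 0.05 and black bars are list medians. *Rgs17* at 3.11 lies apart from the other RGS genes, and *Gng5* at 1.09 and *Gpsm3* at −1.33 are the other red points.

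**Figure D4:**
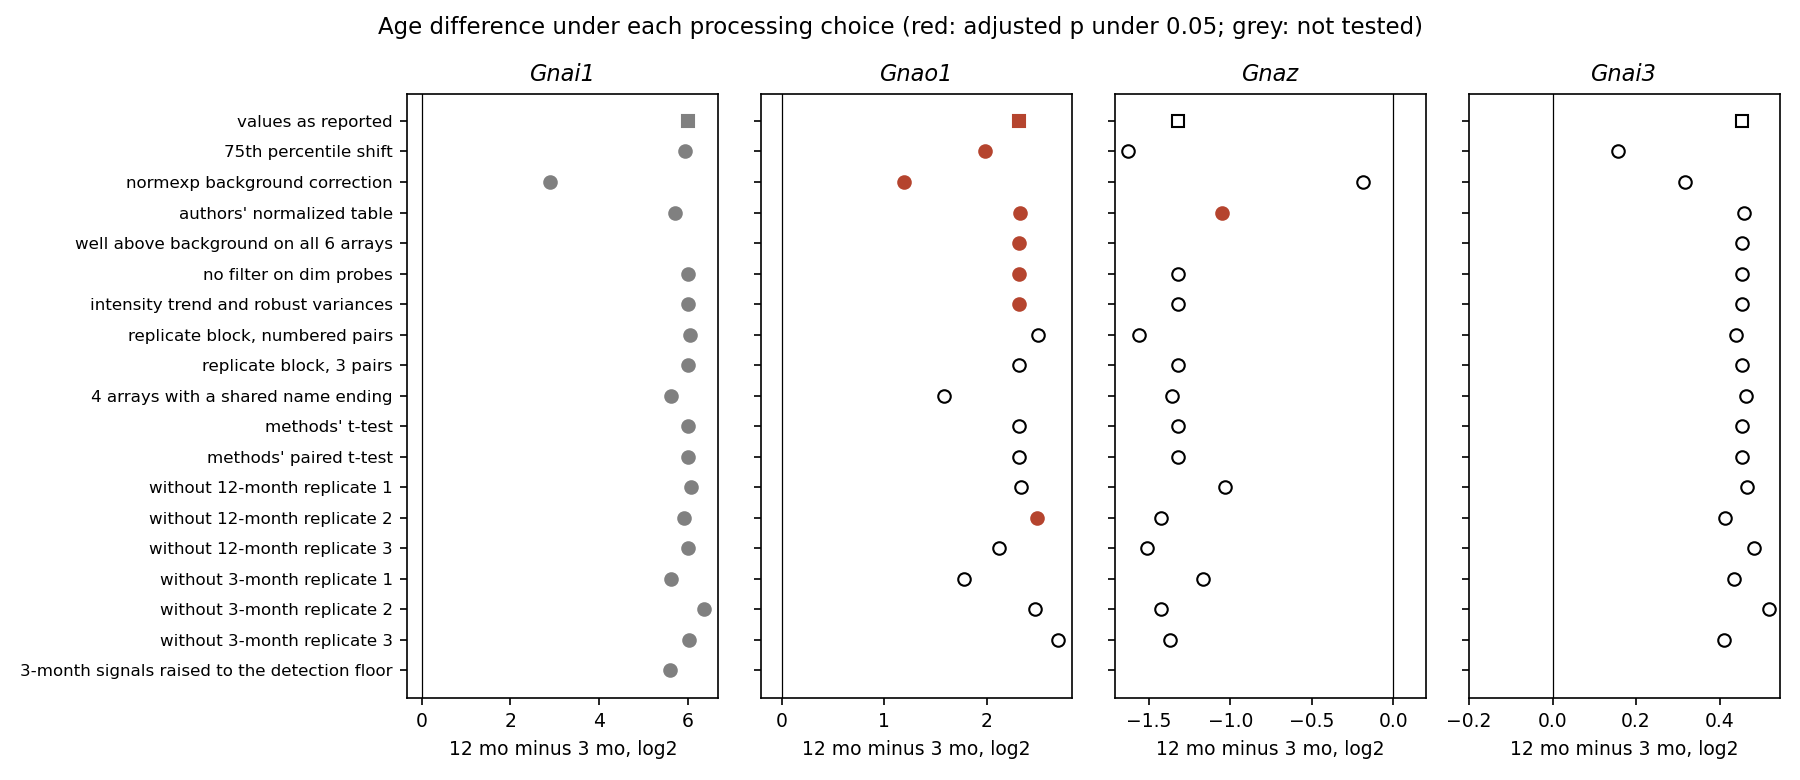
Age difference (12-month minus 3-month, log2) of *Gnai1*, *Gnao1*, *Gnaz* and *Gnai3* under each processing choice (rows). Squares are the values reported, circles the alternatives, red points passed an adjusted p of 0.05, open points did not, and *Gnai1* (grey) was not tested. *Gnai1* stays between 2.89 and 6.36 and *Gnao1* between 1.19 and 2.69, and no value of *Gnaz* or *Gnai3* crosses 0.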

How the data were processed

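Islet RNA of 3 arrays per age was measured on 1-colour Arraystar arrays. Scanner output was deposited as spot intensity quantified, per the file headers, by Agilent Feature Extraction 11.0.1.1. It comprises background-subtracted intensity and the median intensity of spot and background, not normalised between arrays. The authors also deposited a table of quantile-normalised log2 values, used as an alternative. No mean signal column was used here, so normexp (offset 50) was run on the medians. The array design names build rn4. Gene names were matched through RefSeq accessions, and coordinates are given for GRCr8 promoters alone. Arrays have no read depth, and their number limits the precision.

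The log2 background-subtracted intensity, with no pseudocount, was averaged over unflagged spots of each of 24684 probes and quantile normalised. Probes well above background on at least 3 of 6 arrays were kept (17940, of which 17937 were tested) and compared with limma 3.58.1 in R 4.3.3 (two-sided, no block), with Benjamini-Hochberg adjustment over tested probes. A gene was represented by its brightest probe. The code of the fit was checked on simulated data with independent normal noise, which held no scan or background difference between the ages. Relatives were compared by an exact permutation test, adjusted over 4 pairs. Alternatives were a shift to a common 75th percentile, normexp, the authors' table, robust variances with an intensity trend, stricter and no filters, replicate blocks, 4 arrays whose names share an ending, arrays left out, the methods' t-test, paired and unpaired, and the study's threshold with limma's p. The *Gnai1* difference against the detection limit was added after seeing the data.

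Named were all members, the called genes of each partner list and its largest difference among genes well above background on all 6 arrays, the 3 profiles closest to *Gnai1*, and 4 hormones. Called marker genes and *Iapp* were named after their values were seen. The members and lists were chosen with earlier results of these data known.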

Additional observations from a re-analysis of the deposited data

How the results depend on the processing

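The *Gnai1* difference lay between 5.60 and 6.36 in every setting tried other than normexp (2.89), and between 5.61 and 6.36 with 1 array left out. *Gnao1* kept its direction in 17 of 17 settings. It missed the threshold with a replicate block of the 2 numbered pairs (2.49, adjusted p = 0.251) or of 3 pairs (2.31, adjusted p = 0.0961), in the 4 arrays whose names share an ending (1.58, adjusted p = 0.171), and with the methods' t-test unpaired (2.31, adjusted p = 0.118) or paired (2.31, adjusted p = 0.299). With 1 array left out it ranged from 1.78 to 2.69. The number of members called was 2 with the authors' table (*Gnao1* and *Gnaz*, the latter below detection at 12 months), 2 at the study's threshold, and 0 with either block, the 4 arrays and both t-tests, with a range of 0 to 1 with 1 array left out. The *Gnai3* change relative to *Gnai2* ranged from 0.33 to 0.54 over 9 settings.

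Over all genes, 881 calls became 1341 with no filter on dim probes, 46 and 0 with the blocks of 3 and of numbered pairs, 0 in the 4 arrays, 266 with the methods' t-test, 0 with the paired form, 2181 at the study's threshold and 121 to 1152 with 1 array left out. The lowest, 121, was without 12-month replicate 1. The share of calls that were higher was 62% in the values reported and 44.7% with the 75th percentile shift (453 of 1013), which put the median of all genes at −0.34. For the partner lists, 3 calls became 7 with probes required above background on all 6 arrays, 6 with normexp, 5 with no filter, 5 with the intensity trend, 12 at the study's threshold, 1 with the block of 3 pairs, 0 with the numbered block, either t-test and the 4 arrays, and from 0 to 6 when an array was left out.

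Uncalled members changed sign: *Gnai2* with the shift (−0.38) and normexp (−0.025), *Gnas* with the shift (−0.26), without 12-month replicate 2 (−0.0082) and on its other probes (−0.36 and −0.13), *Gna11* with the shift (−0.57), normexp (−0.040) and without 3-month replicate 2 (−0.16), and *Gnaq* without 3-month replicate 3 (0.042). With 1 array left out, *Gna11* ranged from −0.16 to 0.25 and *Gnaq* from −0.60 to 0.042. The arrays of the 2 numbered pairs did not deviate together (correlations −0.0105 and −0.311), nor did the third pair, in which the 12-month array carries no number (−0.26), so the numbers were not taken to pair them. Where values lay near the detection limit, as for *Gnaz*, *Gna11*, *Gna12* and *Gna13* at 12 months, signal over background limited what could be read. The causes of these changes were not tested.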
